A study of Mus musculus with 2 samples.

Results

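Of 66972 CTCF peaks on chromosomes 1 to 19 of newborn mouse midbrain, 1568 (2.34%) had their summit, the highest point of the peak, near the end of a protein-coding gene. A peak was taken when its summit lay within 1 kb of the 3′ end of a protein-coding gene (the annotated gene span, GENCODE vM21 on mm10), more than 1 kb from any annotated transcript start and outside every coding sequence. The peaks are those of the optimal list, thresholded by the irreproducible discovery rate, which compares peak ranks between peak sets. Within that list the choice used position alone and no signal, replicate or sequence value. The assay was chromatin immunoprecipitation with sequencing, with an antibody to CTCF, on midbrain of strain B6NCrl at age 0 days, in 2 replicates that form 1 group. No treatment, genotype or sex is given, and the 2 libraries point to a single biosample and a single donor, so their spread may be only technical. The study therefore has no contrast between conditions, and the comparisons here are between 3′ end peaks and other peaks or genes of the same tissue. The tissue label could not be checked against marker genes, because peak lists hold no expression values. In bulk tissue, strong binding in a share of the cells and weaker binding in all of them cannot be told apart.

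CTCF recognises a long, asymmetric DNA motif through its zinc fingers and halts the loop-extruding cohesin ring, and the motif's strand sets from which side it does so. Pairs of CTCF sites that point toward each other are known to anchor chromatin loops, and CTCF at gene ends has been studied for its part in insulation and in how RNA polymerase II slows and transcripts are processed. The 3′ end of a gene here is the end of its annotated span, set by the transcript that reaches farthest. A messenger RNA is cut and polyadenylated at its own end, and other transcripts of the gene can end before the span does. Upstream of a messenger RNA's end lies the 3′ untranslated region (3′ UTR), and downstream lies the stretch where polymerase runs on before it lets go.

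The motif was learned from these peaks and is 20 bases long, with the consensus NNNCCACNAGGGGGCGCNNN from odd-numbered chromosomes and TNNCCACNAGGNGGCGNNNN from even-numbered ones. It was searched on both strands, and a match counted when it passed a per-position p of 1e-05 with its centre within 50 bp of the summit. Below, 30 bases of mm10 are shown along the motif's own strand, with the 20 matched bases in capitals. The first set holds 7 of the 10 strongest 3′ end peaks, shown as examples of motifs that point along or against the gene at strong peaks.
Ptges2: gaaatTGGCCACAAGGTGGCAGCACcatgt
Rap1gap: ttgtaTGGCCACCAGGGGGCACCAGaggat
Arap1: gcattTGGCCACTAGGGGGCAGTCAtggac
Srxn1: ttcctTCACCAGTAGGTGGCGCTGCtctcc
Pitx3: cccagAGACCACCAGGTGGCGTCGCagcac
Irf2bp1: cgttgTGACCACTAGGTGGTGCCTTttgtc
Clu: aggtgCTGCCAGCAGGTGACGCTGTccagc
The capitals lie at chr2:32404910-32404929 on the minus strand for Ptges2. They lie on the plus strand for the other genes, at chr4:137730295-137730314 for Rap1gap, chr7:101413003-101413022 for Arap1 and chr2:152112104-152112123 for Srxn1. For Pitx3 they lie at chr19:46135444-46135463, for Irf2bp1 at chr7:19006678-19006697 and for Clu at chr14:65982320-65982339. Of these genes Pitx3 alone is on the minus strand, so the Ptges2 and Pitx3 motifs point against their genes and the other motifs of the set point along them.

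The second set holds peaks whose summit lay 0 to 200 bp past the 3′ end, the stretch where the motif's strand was most uneven. It was chosen after values were seen, with 4 motifs along the gene (Hpd, Slc45a3, Blk and Lrp1) and 2 against it (Sox13 and Nprl2), each among the strongest of its kind.
Hpd: tcactTAGCCGCCAGGGGGAGACCAagacc
Slc45a3: atgtgTGGCCAGCAGGTGGAGCCATgggcc
Blk: tttccTGGCCAGCAGGTGGCGATCTcaccc
Lrp1: tgttcCAGCCACCAGAGGGAGCATTgctgc
Sox13: acatgCTGCCACCAGGGGGCAGCAGcgact
Nprl2: attttTGCCCACTAGATGGCGCTCCagcca
These matches lie at chr5:123171742-123171761 (minus strand, Hpd), chr1:131983070-131983089 (plus, Slc45a3), chr14:63372681-63372700 (minus, Blk) and chr10:127538078-127538097 (minus, Lrp1). The opposed ones lie at chr1:133382217-133382236 (plus, Sox13, a minus-strand gene) and chr9:107545780-107545799 (minus, Nprl2, a plus-strand gene).

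The third set, also chosen after values were seen, shows ribosomal protein genes, whose 3′ end motifs mostly pointed along the gene.
Rpl22: tctagCCTCCAGCAGAGGGCGAGGGagaca
Rps19: ctcttCGGCCACTAGGTGGCAGCTGctagc
Rpl3: ggcgtGGGCCACCAGGGGGTGGGTGtagca
Rps10: ggacaGGGCCACTAGGTGGCAGCAGgtagc
Rpl38: tgggcCTGCCACCAGGTGGCACTCTaccgc
The matches lie at chr4:152333109-152333128 (plus, Rpl22), chr7:24890625-24890644 (plus, Rps19), chr15:80076950-80076969 (minus, Rpl3), chr17:27629431-27629450 (minus, Rps10) and chr11:114672865-114672884 (plus, Rpl38).

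CTCF peaks were more frequent near coding 3′ ends than in other sequence, and more frequent past the end than before it. Sequence over 1 kb from a start, outside coding sequence and not an assembly gap was called eligible. Within 1 kb of a coding 3′ end it came to 32.3 Mb. That part held 48.5 peaks per Mb, against 22.9 in the remaining 2189 Mb, a ratio of 2.12. Repeats to which reads may not map were not taken out of either part, and their share in this ratio was not tested. The density was higher at 3′ ends on 19 of 19 autosomes (mean log2 ratio 1.04 ± 0.213, SD over autosomes, exact test, adjusted p = 1.53e-05). Peaks are not independent replicates, so each such test flipped the sign of the per-autosome difference over the 19 autosomes, exactly and two-sided, with Benjamini-Hochberg adjustment over 12 tests and a threshold of 0.05. Among autosomes the density ran from 33.3 per Mb on chromosome 16 to 65.9 on chromosome 11, which also held the most 3′ end peaks, 161. Most of this difference was shared with the wider surroundings of gene ends. Eligible sequence 1 to 10 kb from a coding 3′ end, a comparison added after values were seen, held 43.4 peaks per Mb, and against it the log2 ratio was 0.135 ± 0.164, with 12 autosomes higher and 7 lower (exact sign-flip test, adjusted p = 0.00608). Against sequence inside coding genes, at 29.8 per Mb, the log2 ratio was 0.669.

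Past the gene end, 966 peaks lay downstream and 602 upstream, which is 61.6% downstream. Per Mb of eligible sequence the density was 56.0 downstream and 39.9 upstream, a ratio of 1.40. The downstream side was denser on 18 autosomes and sparser on 1 (mean log2 ratio 0.504 ± 0.331, exact sign-flip test, adjusted p = 3.43e-05). In 500 bp steps the density was 41.1 and 38.5 per Mb in the kb before the end, then 58.7 and 53.2 in the kb after it. It stayed at 52.0 in the next step and at 54.1 between 2000 and 2500 bp, and reached 38.4 in the last step before 10 kb. Upstream, steps from 1 to 10 kb inside the end ranged from 37.7 to 45.7 per Mb. The change of level thus sat at the 3′ end itself, and the higher level ran on for several kb past it.

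**Figure D1:**
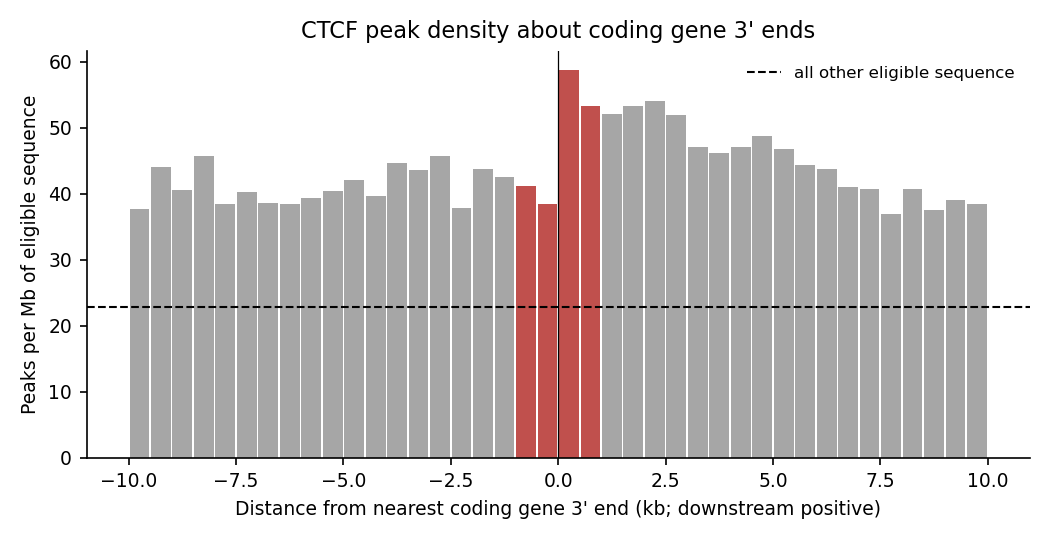
CTCF peaks per Mb of eligible sequence (vertical axis) in 500 bp steps of distance from the nearest coding 3′ end (horizontal axis, kb, downstream positive). The red bars are the steps within 1 kb, at 41.1, 38.5, 58.7 and 53.2 per Mb from left to right, and the dashed line is the 22.9 per Mb of all other eligible sequence.

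By annotation, 497 of the upstream peaks lay in an exon, which outside coding sequence means mostly the 3′ UTR, at 40.2 per Mb, and 105 in an intron, at 38.7 per Mb. Downstream, 781 lay outside any annotated gene, at 54.3 per Mb. A further 126 lay in an intron of an overlapping gene, at 59.4 per Mb, and 59 in an exon of one, at 80.0 per Mb over only 0.738 Mb. Median signals of these 5 places ranged from 102 to 114, a narrow range beside the spread of single peaks. The median distance of a summit from the 3′ end was 473 bp, and 131 summits lay within 100 bp. The 1 kb limit fell in a smooth stretch. It took in 143 peaks at 900 to 1000 bp with a median signal of 109, and left out 156 peaks at 1000 to 1100 bp with a median of 95.7. The nearest inside were at Fblim1 and Hnrnpul1, both at 1000 bp, with signals of 75.3 and 372. The nearest outside were at Mrps23, at 1001 bp with 31.0, and at Padi4, at 1002 bp with 146.

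The motif was present at 1067 of the 1568 3′ end peaks, or 68.0% (95% Wilson interval 65.7 to 70.3, counting error only). Of all autosomal peaks 59.0% had it, and of the other peaks over 1 kb from a start and outside coding sequence, called the other peaks from here on, 65.0% did. The mean difference from the other peaks was 3.26 percentage points ± 5.42 (SD over autosomes), with 12 autosomes higher and 7 lower (exact sign-flip test, adjusted p = 0.0222). By the same exact test it passed 0.05 no longer with the conservative peak list (2.64 points, adjusted p = 0.0553), the stronger 50% of peaks (2.29 points, adjusted p = 0.100), a 500 bp limit (3.29, adjusted p = 0.0738) or a motif threshold of 1e-06 (2.23, adjusted p = 0.0708). A motif threshold of 1e-04 gave 2.08 points, and all other autosomal peaks as comparison gave 9.53. Against peaks 1 to 10 kb from a coding 3′ end, of which 71.4% had a motif, its direction turned, to -3.00 points (exact sign-flip test, adjusted p = 0.0449).

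Motif presence moved with signal. With a motif the median signal of 3′ end peaks was 178, and without one it was 53.9. In 5 equal classes of all peaks by signal, from weakest to strongest, the share of 3′ end peaks with a motif was 43.3%, 53.8%, 60.3%, 75.1% and 90.0%. The other peaks had 43.2%, 54.4%, 62.2%, 74.7% and 88.8% in the same classes, inside the Wilson interval of the 3′ end peaks each time. Averaged over signal deciles, the shares were 68.0% and 68.2%, a mean difference of 0.0700 points (exact sign-flip test, adjusted p = 0.951, 10 autosomes higher and 9 lower). Against the peaks 1 to 10 kb away, at like signal, it was -3.39 points (exact sign-flip test, adjusted p = 0.00905), and against all other autosomal peaks it was 5.31 (adjusted p = 6.10e-04).

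Where a 3′ end peak had a motif, the motif pointed along the gene more often than against it downstream of the end. Upstream of the end no such excess was seen. In all, 593 of 1067 motifs (55.6%) lay on the strand of the gene whose 3′ end was nearest. The mean excess over an even 50% was 4.73 points ± 7.09, with 15 autosomes above and 3 below (exact sign-flip test, adjusted p = 0.0156). Downstream of the end the share was 59.0% (398 of 675, Wilson 55.2 to 62.6). Upstream it was 49.7% (195 of 392, 44.8 to 54.7). The difference between the sides was 9.85 points ± 12.2, with 13 autosomes higher and 4 lower (exact sign-flip test, adjusted p = 0.00175). By the same exact test the overall excess passed 0.05 no longer with a 500 bp limit (5.83 points, adjusted p = 0.0721), the ends of every coding transcript (2.34, adjusted p = 0.107) or a motif threshold of 1e-06 (4.12, adjusted p = 0.128). The difference between the sides was 16.5 points with a 500 bp limit (exact test, adjusted p = 0.00548), and 8.75 in the stronger 50% of peaks, no longer past 0.05 (adjusted p = 0.0654). The excess was not shown to be larger within 1 kb than farther out. At peaks 1 to 10 kb from a coding 3′ end, a comparison added after values were seen, 52.3% of motifs lay on the gene strand (3781 of 7226), with 55.1% downstream (2140 of 3883, Wilson 53.5 to 56.7) and 49.1% upstream (1641 of 3343, 47.4 to 50.8). Against these, 3′ end peaks were higher by 1.65 points in all (exact test, adjusted p = 0.507) and by 2.45 downstream (adjusted p = 0.485).

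The unevenness was largest just past the end. This stretch was picked after the values were seen and is given as a description, with no test. Of 129 motifs at summits 0 to 200 bp downstream, 97 (75.2%) lay on the gene strand, at 129 different genes. The share was above an even split on 15 of the 17 autosomes with such a motif and below it on 1. In the conservative list it was 92 of 122 (75.4%). Motif thresholds of 1e-04 and 1e-06 gave 72.2% (122 of 169) and 71.4% (55 of 77). Without replicate 1 it was 74.4%, without replicate 2 it was 76.0%, and around the ends of every coding transcript it was 66.5% (129 of 194). Among the stronger of these peaks it was 49 of 64, and among the weaker 48 of 65. In the 4 following stretches of 200 bp the share was 54.2%, 57.6%, 52.6% and 56.9%.

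The strand of motif matches was uneven in the DNA sequence around gene ends also where no summit of the optimal list lay within 50 bp. Such a match can still lie inside a listed peak, whose median width was 310 bp, or near a peak of another list. Every match in eligible sequence was placed by its centre. In the last 200 bp before the end, 78 of 230 matches (33.9%) lay on the gene strand. In the first 200 bp after it, 208 of 319 (65.2%, Wilson 59.8 to 70.2) did. After the end, matches with a peak summit within 50 bp were at 73.9% (99 of 134, 65.9 to 80.6). Those without a listed summit within 50 bp were at 58.9% (109 of 185, 51.7 to 65.8). Before the end they were at 43.8% (35 of 80) and 28.7% (43 of 150). In both stretches the share was higher for matches with a peak. Past the end the intervals narrowly missed each other, in a stretch picked after values were seen, and before it they overlapped. From 200 to 1000 bp downstream the shares were 54.3% with a summit within 50 bp and 52.1% without, with overlapping intervals. No test was made of these differences. On the gene strand, bases 0 to 200 bp past the end were 22.6% G and 21.1% C, and those just before it 19.7% G and 19.7% C. The part of base composition in the strand counts was not tested.

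**Figure D2:**
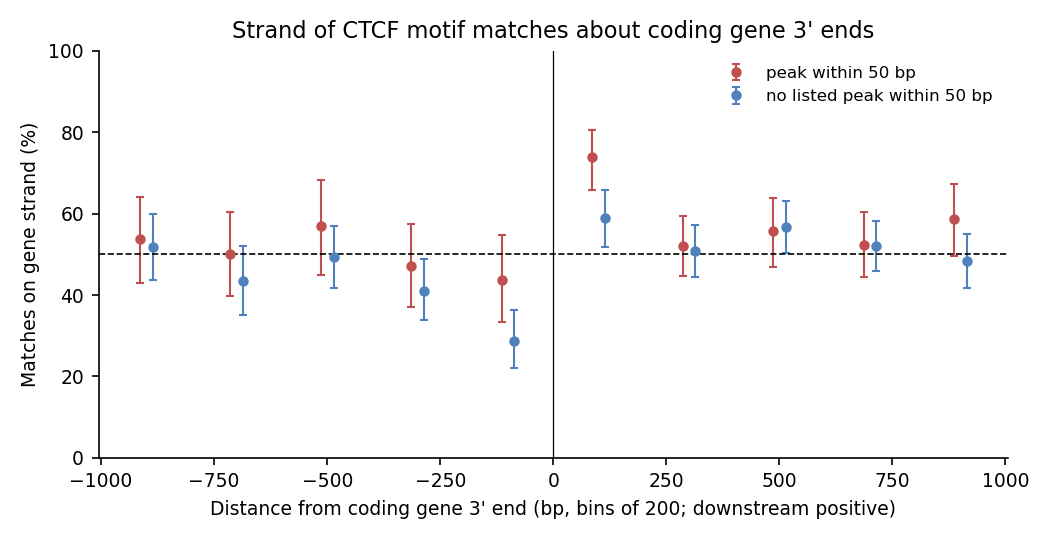
Share of CTCF motif matches that lie on the strand of the gene (vertical axis, percent) in 200 bp steps around coding 3′ ends (horizontal axis, downstream positive), for matches with a peak summit within 50 bp (red) and with no listed summit within 50 bp (blue). Bars are 95% Wilson intervals, the dashed line is an even 50%, and the step just past the end stands at 73.9% with such a summit and 58.9% without.

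Single genes from the stretch just past the end illustrate motifs of either strand. They were chosen by motif strand and signal, so they cannot show how often the motif points along the gene. At Hpd, which encodes an enzyme of tyrosine breakdown, the summit lay 53 bp past the end with a signal of 258 in replicate 1, 235 in replicate 2 and 492 in the optimal list. It also lies within an overlapping gene, Psmd9. At Slc45a3, a membrane transporter gene, the summit was 109 bp past the end with 238 and 210. At Blk, a Src family kinase gene of B cells, it was 145 bp past with 234 and 203. At Lrp1, a large endocytic receptor of the lipoprotein receptor family, it was 78 bp past with 223 and 195. Opposed motifs also had strong peaks. Sox13, a transcription factor gene, had 269 and 230 at 71 bp, and Nprl2, a subunit gene of a complex that restrains mTOR signalling, had 221 and 203 at 80 bp. Over the whole stretch the median signal was 135 with the motif along the gene and 129 with it against.

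The peaks at 3′ ends were stronger than the other peaks, and a difference from those in the surrounding 10 kb was not shown. The signal of a peak is the deposited value of the optimal list, on a scale that no source here explains, so peaks were ranked as percentiles of all autosomal peaks. The 3′ end peaks had a median signal of 110, with quartiles of 44.9 and 278 and a range of 6.81 to 627. The other peaks had a median of 78.4 and peaks within 1 kb of a start 67.7. The median percentile was 59.7 against 50.9 for the other peaks, a mean difference of 8.32 ± 6.44 with 17 autosomes higher and 2 lower (exact sign-flip test, adjusted p = 1.56e-04). In the top 10% of all peaks stood 218 of them (13.9%), and in the lowest 10% 117 (7.46%). Peaks 1 to 10 kb from a coding 3′ end had a median signal of 107 and a percentile of 59.0. Against those the difference was 0.326 and the call was lost (exact sign-flip test, adjusted p = 0.843, 9 autosomes higher and 10 lower).

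**Figure D3:**
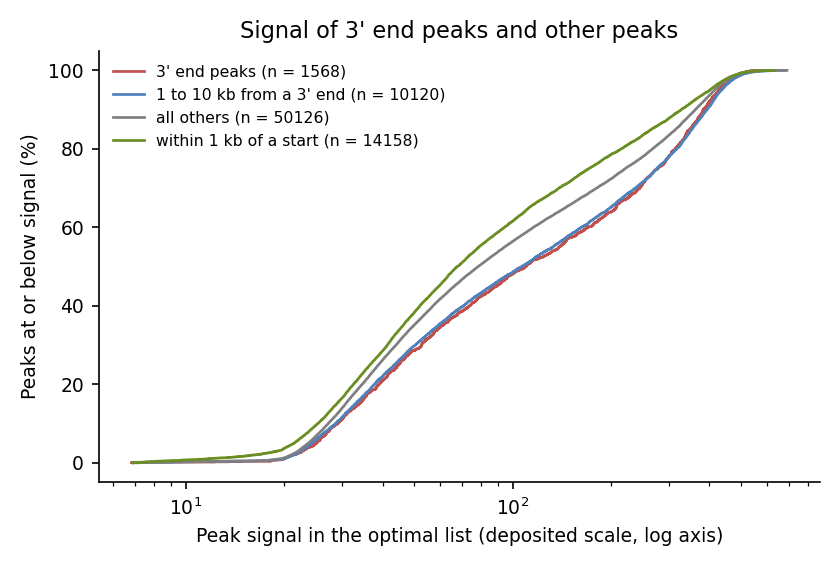
Cumulative share of peaks (vertical axis, percent) at or below each signal of the optimal list (horizontal axis, log scale) for 3′ end peaks, peaks 1 to 10 kb from a 3′ end, all other peaks and peaks within 1 kb of a start. The first 2 curves nearly coincide, with medians of 110 and 107, and lie to the right of the other two, with medians of 78.4 and 67.7.

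The 10 strongest 3′ end peaks lay at genes of varied function. Ptges2, which encodes a prostaglandin E synthase, led with 627 (305 in replicate 1 and 323 in replicate 2). Its peak at chr2:32404680-32405069 lies in the 3′ UTR, 884 bp before the end. Rap1gap, which encodes a protein that switches off the small GTPase Rap, had 544 (272 and 270) at chr4:137730142-137730466, 447 bp past the end. Arap1, which encodes a regulator of small GTPases, had 538 (272 and 267) at 394 bp past. Abca5, a lipid transporter gene, had 533 (264 and 271) at 664 bp past. These 4 peaks had nearly equal values in both replicates.

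Srxn1, which encodes sulfiredoxin, an enzyme that repairs over-oxidised peroxiredoxins, had 527 (274 and 256). Pitx3, a homeobox gene needed by midbrain dopamine neurons, had 522 (286 and 236). Irf2bp1, a transcriptional corepressor gene, had 518 (264 and 256) in its 3′ UTR. Clu, which encodes the secreted chaperone clusterin, had 516 (276 and 239) at 786 bp past the end. Fmod, a collagen-binding proteoglycan gene, had 515 (256 and 261), and Rpl22, a protein of the large ribosomal subunit, had 513 (254 and 263). All 10 carried a motif, 7 of them on the gene strand, with Ptges2, Pitx3 and Fmod the exceptions. All 10 ranked at or above percentile 99.5.

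Replicate values followed each other closely, in a list already thresholded by the irreproducible discovery rate. That threshold limits what their similarity can show. Of the 1568 peaks, 1550 (98.9%) had a summit within 100 bp in both replicate lists, where all autosomal peaks had 97.8%. The medians were 63.1 in replicate 1 (range 4.91 to 305) and 47.3 in replicate 2 (3.61 to 323). The Spearman rank correlation across 3′ end peaks was 0.968, and 0.951 across the other peaks, as a description of peaks that share the same 2 libraries. For 96.1% of the peaks in both lists the replicate ratio was within 2-fold of the median ratio of all autosomal peaks. Among all autosomal peaks that share was 94.7%, and among the other peaks 95.1%. The median absolute deviation of the log2 ratio, taken from the median of all autosomal peaks, was 0.205 for 3′ end peaks and 0.217 for the other peaks. The mean difference of -0.0114 did not pass the test (exact sign-flip test, adjusted p = 0.128, 7 autosomes higher and 12 lower). A conservative summit was shared by 1417 (90.4%), against 86.9% of all autosomal peaks.

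**Figure D4:**
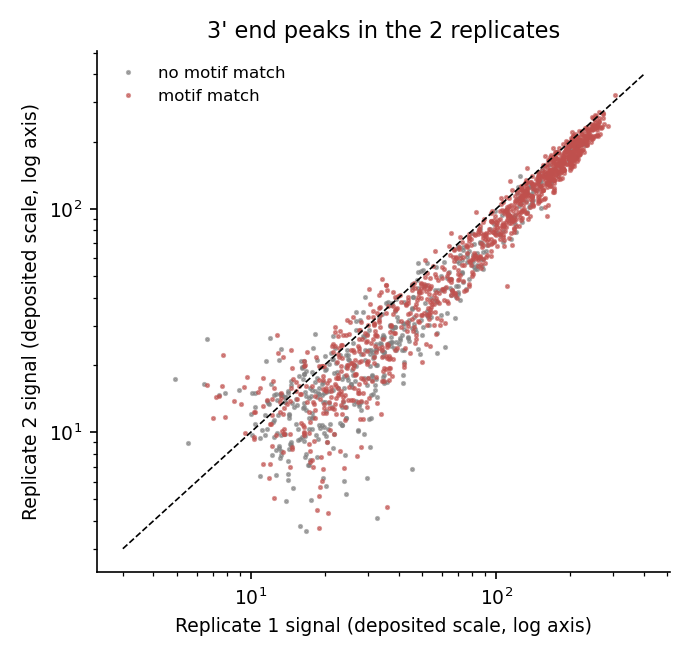
Signal of each 3′ end peak in replicate 1 (horizontal axis) and replicate 2 (vertical axis), both log axes on the deposited scale, for the 1550 peaks in both lists. Peaks with a motif are red and reach the highest values, peaks without are grey, and the dashed line marks equal signal.

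The peaks with the most unequal replicates were weak. Olfr1373, an olfactory receptor gene, had 6.62 in replicate 1 and 26.0 in replicate 2. Ndufa10 and Ndufs7, which encode subunits of respiratory complex I, had 4.91 and 17.3, and 7.66 and 22.2. In the other direction Gm11985 had 32.7 and 4.14. Nudt1, which encodes an enzyme that clears oxidised nucleotides, had 36.0 and 4.61, and Olfr750, another olfactory receptor gene, had 45.3 and 6.83. The optimal signals of these 6 ranged from 23.2 to 52.4, all below the median of 3′ end peaks. The weakest 3′ end peaks of all were at Acoxl, with 6.81 and no matching summit in replicate 2, Pcdh1, with 8.25 and none in replicate 1, and Agpat4, with 12.2 and none in replicate 2.

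The sequence around 3′ end summits was richer in G and C and held fewer repeats. Mean GC content around the summit was 48.4% for 3′ end peaks and 45.6% for the other peaks. The mean difference was 2.71 points ± 0.712, higher on each of the 19 autosomes (exact sign-flip test, adjusted p = 1.53e-05). It was 1.26 points against peaks 1 to 10 kb from a coding 3′ end and 0.368 against all other autosomal peaks, which include the GC-rich promoters (exact test, adjusted p = 1.53e-05 and 0.0190). Repeat-masked sequence held 18.5% of 3′ end summits, 24.5% of the other summits and 21.1% of all autosomal summits. The mean difference from the other peaks was -5.39 points ± 4.20, lower on 17 autosomes and higher on 2 (exact sign-flip test, adjusted p = 1.68e-04). Against peaks 1 to 10 kb away, of which 27.1% were masked, it was -8.03 and lower on all 19. It was -3.23 with a 2 kb limit, -2.13 against all other autosomal peaks and -2.48 in the stronger 50% of peaks, where it passed 0.05 no longer (exact test, adjusted p = 0.100).

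The 3′ end peaks belonged to many genes, mostly 1 each. Of 20402 coding genes with eligible sequence near their end, 1614 (7.91%) had at least 1 such peak, 1516 of them exactly 1, 74 of them 2 and 24 of them 3 or more. Of those 24, all but Bcan, Snx21 and Rsph6a were gamma protocadherin genes. Bcan encodes brevican, a proteoglycan of the brain's extracellular matrix, and its peaks had 503 at 403 bp past the end, 48.9 at 325 bp before it and 52.5 at 720 bp before it. The gamma protocadherins, neuronal adhesion genes on chromosome 18, share their last exons, so they are 1 place counted many times. There the signals were 37.0, 141 and 35.3. Within 1 kb of more than 1 coding 3′ end lay 107 peaks (6.82%). The genes with a 3′ end peak had a median length of 19579 bp and the rest 17882 bp. Other peaks were close by. The nearest other peak lay at a median of 4260 bp, against 6632 bp for the other peaks, and within 2 kb for 27.7% against 20.9%.

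Genes with a 3′ end peak more often had a peak at a start as well. A peak within 1 kb of one of the gene's own starts was found at 887 of 1614 genes with a 3′ end peak (55.0%) and at 8086 of 18788 genes without one (43.0%). Over all these genes it was 44.0%. The mean difference was 11.7 points ± 6.07, higher on each of the 19 autosomes (exact sign-flip test, adjusted p = 1.53e-05). Compared within deciles of promoter GC content the difference was smaller, 3.90 points (exact test, adjusted p = 0.0170, 13 autosomes higher and 6 lower), and with the stronger 50% of peaks it was 5.43 (adjusted p = 0.00848). Counting only the outermost start of each gene, a choice added after values were seen, it was 8.85 (exact test, adjusted p = 1.53e-05). The start peaks themselves had a median signal of 85.0 at genes with a 3′ end peak and 85.4 at the rest. At the 887 genes with both, the median was 85.0 at the start and 110 at the 3′ end.

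In 227 of those genes a motif was found at both the start peak and the 3′ end peak. A start is any annotated start of the gene, so the start peak can lie inside it, and in 97 of the 227 it was not at the outermost start. In 84 (37.0%) both pointed along the gene, and in 62 (27.3%) the start's motif pointed against it and the end's along it. Both pointed against it in 44 (19.4%), and in 37 (16.3%) the start's motif pointed along the gene and the end's against it, so that the pair faced each other. In these genes 146 of the 3′ end motifs (64.3%) and 121 of the start motifs (53.3%) lay on the gene strand. Motifs of start peaks lay on the gene strand at 53.1% of genes with a 3′ end peak (179 of 337) and at 55.4% of genes without one (1597 of 2885). These shares are given as a description.

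The 5 genes of this kind with the strongest 3′ end peaks were Rap1gap, Arap1, Pitx3, Clu and Fmod, and at the first 3 the start peak lay at a start other than the outermost. Rap1gap had a start peak of 318 (170 and 147 in the replicates) with both motifs along the gene. At Arap1 the start peak had 63.9 (40.7 and 22.5), far below the 538 of its 3′ end. Clu had 310 (155 and 151) at 10 bp from a start, with the start's motif against the gene and the end's along it, as at Arap1. Pitx3 had 200 (107 and 93.4) at 71 bp from a start, and Fmod had 47.8 (18.4 and 27.2). At Pitx3 and Fmod both motifs pointed against the gene. At none of the 5 did the pair face each other.

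Neighbouring genes were compared by arrangement. A 3′ end counts as convergent when another coding gene on the opposite strand ends within 5 kb downstream, or overlaps it by up to 1 kb. It counts as tandem when it is not convergent and any coding gene on the same strand starts within 5 kb downstream. Of convergent ends 10.3% (405 of 3933) had a peak, of tandem ends 9.0% (197 of 2188) and of the rest 7.09% (1012 of 14281). The difference between convergent and tandem ends was 2.14 points ± 8.03, with 12 autosomes higher and 7 lower, and did not pass the test (exact sign-flip test, adjusted p = 0.319). It passed with a 2 kb limit (3.50 points, exact test, adjusted p = 0.0386). Among the convergent ends with a peak are 21 gamma protocadherin genes on chromosome 18, which share 2 end positions. Without chromosome 18 the difference was 0.492 (exact test, adjusted p = 0.637). With each end position counted once it was 1.06 (exact test, adjusted p = 0.337), and 2.54 with a 2 kb limit (adjusted p = 0.0401), all 3 added after values were seen. Per Mb of eligible sequence, a measure added after values were seen, the order turned, with 62.1 peaks at convergent and 70.1 at tandem ends (exact test, adjusted p = 0.951), and 43.2 at the rest. Median signals were 111, 89.3 and 113.

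Several strong peaks lay within 1 kb of the 3′ ends of 2 genes that end toward each other. The Pitx3 peak, at chr19:46135309-46135614, lies 224 bp past the end of Pitx3 and inside the 3′ UTR of Elovl3, a fatty acid elongase gene on the other strand. The peak near the ends of Phldb1 and Treh, the trehalase gene, had 488 (253 and 235) at chr9:44685326-44685670, and lies in an intron of Treh. Between Rdh5, a retinol dehydrogenase gene, and Cd63, a tetraspanin gene, the signal was 477 (249 and 228) at chr10:128913223-128913588, outside both genes. In the 3′ UTR of Ppp1r1a, which encodes an inhibitor of protein phosphatase, the signal was 463 (238 and 224), near the end of Pde1b, a phosphodiesterase gene. In the 3′ UTR of Ubap1, a gene of the endosomal sorting machinery, it was 416 (206 and 211), near the end of the kinesin gene Kif24. At each of these 5 places both replicates gave values above 200.

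Gene lists were set beside the 7.91% of all coding genes with a 3′ end peak, as counts with Wilson intervals and no test. The 20 lists named 524 symbols, of which 494 were eligible autosomal genes. Cytosolic ribosomal protein genes had the highest share, 14 of 69 (20.3%, Wilson 12.5 to 31.2), followed by core clock genes at 4 of 20 (Wilson 8.07 to 41.6%). The intervals of these 2 lists lay above 7.91%, and those of the others included it. Ribosomal protein genes are short and highly transcribed in every cell. In that list 13 of the 14 leading peaks lay downstream, and of 12 with a motif 11 pointed along the gene, a count noticed after values were seen. Of all 3′ end peaks 61.6% lay downstream. Of all their motifs 55.6% lay on the gene strand, and of the downstream ones 59.0%. The list was picked out among the 20 after its values were seen, and its difference from these shares was not tested. For neural progenitor genes (0 of 16) and genes of CTCF and cohesin machinery (0 of 21) no 3′ end peak was listed, with upper Wilson bounds of 19.4% and 15.5%.

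**Figure D5:**
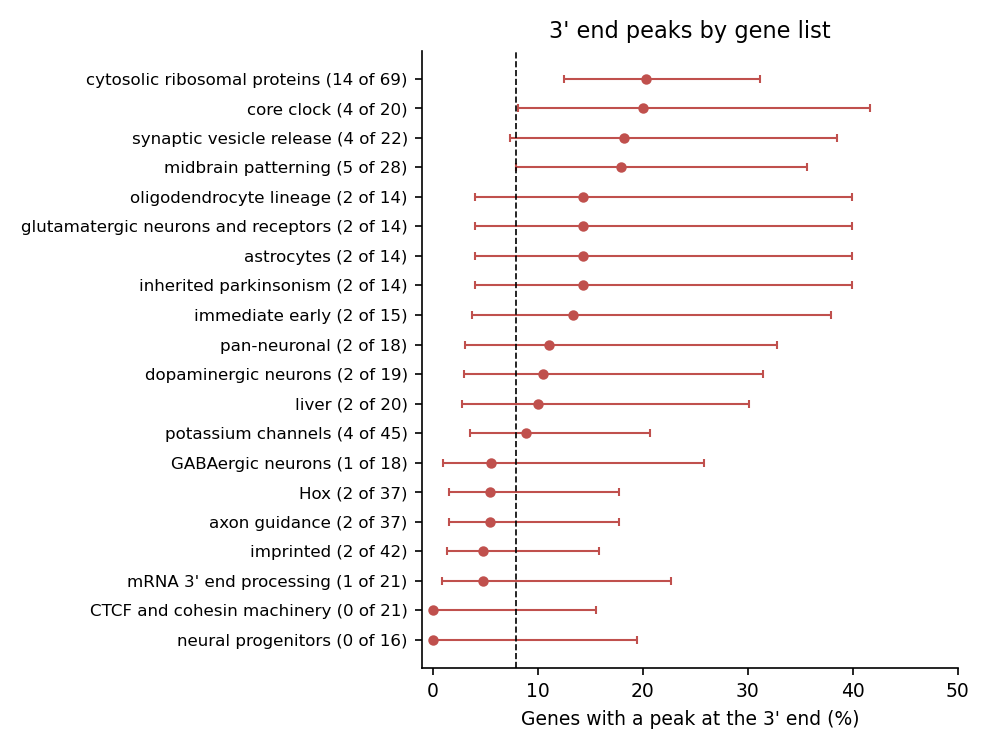
Share of eligible genes with a 3′ end peak (horizontal axis, percent) in each of 20 gene lists (vertical axis, with counts), with 95% Wilson intervals. The dashed line is the 7.91% of all coding genes, and ribosomal protein genes stand at 20.3%.

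Among ribosomal protein genes, Rps19, of the small subunit, had 496 (259 in replicate 1 and 237 in replicate 2) at 835 bp past its end. Rpl3 had 344 (178 and 164) at 825 bp, Rps10 had 332 (166 and 167) at 978 bp and Rpl38 had 307 (159 and 147) at 554 bp. Rpl22 was the exception in position, with its peak in the 3′ UTR 936 bp before the end, and Rpl23 the exception in strand, with 132 (64.2 and 68.0). The weakest of the 14 was Rpl24, with 38.7 (24.3 and 11.6) and no motif. The list's median signal was 207, above the 110 of all 3′ end peaks.

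Among genes of midbrain identity the strengths of 3′ end peaks varied widely. Of 19 dopaminergic genes 2 had one, Pitx3 with 522 and Pts, a gene of the pathway that makes the cofactor of tyrosine hydroxylase, with 19.8 (10.3 and 9.32). Of 28 midbrain patterning genes 5 did. These were Nkx2-2, a homeobox gene of the ventral neural tube, with 194 (121 and 78.4), Irx3 with 147 (84.6 and 60.2), Pax5 with 61.9 (32.0 and 28.5), Barhl1 with 39.9 (19.4 and 19.8) and Msx1 with 20.1 (13.2 and 7.89). Nkx2-2 also stands among the 18 GABAergic genes, where no other had a 3′ end peak. The Wilson intervals of the dopaminergic and patterning shares, 2.94 to 31.4% and 7.88 to 35.6%, both include 7.91%.

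Of 22 synaptic vesicle release genes 4 had a 3′ end peak, all downstream. Vamp2, a vesicle SNARE gene, had 285 (151 and 134) at 162 bp past the end, without a motif. Bsn, the active zone scaffold bassoon, had 255 (149 and 108), and Sv2a, a vesicle membrane protein gene, had 98.5 (54.2 and 44.9). Pan-neuronal genes had 2 of 18, the neurofilament genes Nefm and Nefh, with 27.4 and 19.6, both without a motif. Glutamatergic genes had 2 of 14, the vesicular transporter gene Slc17a6 with 30.7 (24.4 and 5.30) and the metabotropic receptor gene Grm5 with 26.4 (17.4 and 7.46). The 4 vesicle genes held mid-range to strong peaks, and the 2 neurofilament and 2 glutamatergic genes weak ones, too few genes for a comparison. The peaks of the 2 glutamatergic genes also had no motif.

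Potassium channel genes had 4 of 45, among them Kcnn1 with 433 (231 and 204) and Kcnd3 with 425 (209 and 216), 801 and 786 bp past the end with the motif along the gene. Axon guidance genes had 2 of 37, the semaphorin receptor genes Plxna2 with 339 (182 and 161) and Plxna4 with 30.4. Glial lists had similar counts. Astrocyte genes had 2 of 14, the glutamate transporter gene Slc1a3 with 228 (119 and 106) and S100b with 201 (115 and 86.4). Oligodendrocyte lineage genes had 2 of 14, Bcas1 with 330 (171 and 160) and Nkx2-2 again.

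Clock genes had 4 of 20, all below the median of 3′ end peaks. Npas2 had 89.1 (54.0 and 32.8), the transcription factor gene Dbp had 39.6 (26.2 and 13.4), Per2 had 34.0 (17.8 and 16.0), and Per1 had 26.0 with 17.4 in replicate 1 and no match in replicate 2. Immediate early genes had 2 of 15, Junb with 380 (194 and 187) at 71 bp past the end and Fos with 36.0 (21.1 and 14.4). Imprinted genes had 2 of 42, Magel2 with 279 (140 and 140) and Usp29 with 38.5 (23.7 and 13.8). Inherited parkinsonism genes had 2 of 14, Dnajc6 with 66.4 (37.0 and 29.9) and Uchl1 with 49.6 (26.0 and 23.2). Of 21 genes of messenger RNA 3′ end processing 1 did, Papola, the poly(A) polymerase gene, with 330 (183 and 147). Hox genes had 2 of 37, Hoxd11 with 178 (98.9 and 77.5) and Hoxb8 with 35.9 (19.4 and 16.4), and liver genes 2 of 20, Pck1 with 340 (173 and 169) and Hp with 23.2 (13.5 and 8.14). The liver genes, listed as genes of another tissue, thus had a Wilson interval, 2.79 to 30.1%, that includes 7.91%.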

How the data were processed

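As narrowPeak files on mm10, per the deposited text notes, the authors gave 5 lists: 1 per replicate, 1 on both replicates together, and an optimal and a conservative list thresholded by the irreproducible discovery rate. Each gives a signal value per peak as the authors' caller wrote it, and no step is recorded that makes the replicates' signal comparable. For aligner, caller, threshold and read depth nothing is given in the sources used here, so a gene without a listed peak is not shown to lack CTCF. That rate compares peak ranks between peak sets, and which sets were used is not known here, which limits what the similarity of replicates within these lists can show.

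Peaks on chromosomes 1 to 19 were used, and 1631 elsewhere were left out. Sequence, repeat masking and genes came from GRCm38 and GENCODE vM21. The motif matrix used on even-numbered chromosomes came from the 2000 strongest peaks elsewhere (odd numbers and X), and the reverse. Replicate values are those of the nearest summit within 100 bp. Tests were exact sign-flip tests over 19 autosomes (smallest p 3.81e-06), checked on simulated data. They measure the spread between autosomes within 1 set of lists, not between animals. Python 3.11.15, numpy 2.4.6, pandas 2.3.3, scipy 1.17.1 and matplotlib 3.10.9 were used.

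Named were the 10 strongest peaks, the 5 strongest shared by 2 opposed 3′ ends, the 5 strongest with a start peak and both motifs, up to 3 genes per list, the genes with most peaks, the 3 most unequal between replicates each way, the 3 weakest and the 2 nearest each side of the limit. Beyond that rule, Rpl23, Rpl24, Rps10, Rpl38, Per1, Sv2a, Barhl1, Msx1, Snx21, Rsph6a and the peaks 0 to 200 bp past an end were chosen after their values were seen. A gene that the rule names is not reported here. The peaks studied and the gene lists were chosen with earlier results of these data known. Alternatives used the conservative list, the stronger 50% of peaks, each replicate's own list, other distance limits, other motif thresholds and other comparison peaks.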

Additional observations from a re-analysis of the deposited data

How the results depend on the processing

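Of 122 alternative values of the 12 tested results, 95 kept direction and side of the threshold, 12 lost the call, 7 gained one and 8 turned direction. Peak density, the excess downstream, GC content and the start peak of the same gene kept direction and call in every alternative run, over log2 ratios of 0.135 to 1.24 and 0.370 to 0.630 and differences of 0.368 to 3.0 and 3.90 to 13.8 points. The comparison with peaks 1 to 10 kb from a coding 3′ end, the density measure for convergent ends, each end position counted once, the outermost start and leaving out chromosome 18 were added after seeing the data. The first gave 0.326 for signal percentile, -3.00 for motif share, -3.39 for motif share at like signal and 0.00225 for the replicate spread, and ended the calls of orientation (1.65) and orientation downstream (2.45). The second gave -0.0293. Motif share lost its call with the conservative list (2.64), the stronger 50% of peaks (2.29), a 500 bp limit (3.29) and a motif p of 1e-06 (2.23). Motif share at like signal was -0.280 with the conservative list, -1.19 at 1e-06 and 5.31 against all other autosomal peaks. Motif orientation lost its call at 500 bp (5.83), with every coding transcript (2.34) and at 1e-06 (4.12). In the stronger 50% the difference in orientation between sides was 8.75, repeat-masked summits -2.48 and replicate spread 6.47e-04. Replicate spread gained a call with a 2 kb limit (-0.0170), every transcript (-0.0132), peaks inside coding genes (-0.0190) and all other autosomal peaks (-0.0170), and convergent ends did with 2 kb (3.50, and 2.54 with each end position counted once). The cause of these changes was not tested.

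Using 1 replicate's own strongest peaks gave 1.03 to 1.05 for density (log2), 0.522 to 0.525 for downstream density (log2), 7.48 to 9.13 for signal percentile, 2.95 to 2.98 for motif share, -0.452 (without replicate 2) to 0.0318 for motif share at like signal, 4.12 to 4.23 for orientation, 8.76 to 9.82 for orientation between sides, 2.58 to 2.73 for GC, -4.90 to -3.92 for masked summits, 11.4 to 11.8 for start peaks and 2.34 to 2.63 for convergent ends. The number of 3′ end peaks was 927 in the stronger 50%, 825 at 500 bp, 2968 at 2 kb and 2346 with every coding transcript. No paired analysis was possible because the samples form 1 group. Read depth is unknown, and intervals cover counting error only.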
